A study of Homo sapiens with 2 samples.

Results

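DNA methylation was examined at the histone gene cluster of chromosome 6, the largest group of genes for the replication-dependent histones in the human genome. Its members were the protein-coding genes of the GRCh37 (hg19) annotation that lie between 26 and 28 Mb on chromosome 6 and carry a histone symbol beginning with H1-, H2AC, H2BC, H3C or H4C, which gave 49 of the 20163 protein-coding genes. Each gene was represented by the CpG dinucleotides within 2 kb of its transcription start site (TSS), taken as the most upstream base of the gene, and a CpG shared by several windows was counted once. The windows held 4369 CpGs, which were chosen by their read depth: the 4226 CpGs (96.7%) covered by more than 5 reads in both lines were used, of 24454751 CpGs that passed the same rule in the nuclear genome. No methylation value entered that rule. The cluster itself was picked with earlier results of these data in view, so every difference between the lines given for it is a description.

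The study sequenced the bisulfite-treated genomes of 2 acute myeloid leukemia cell lines, OCI-AML3 and AML5, with 1 library for each. OCI-AML3 carries a heterozygous R882C mutation of DNMT3A, an enzyme that places new methyl groups on cytosine, and AML5 is wild type for DNMT3A. Both were grown in culture, and AML5 appears in its record as OCI-AML5. Genotype and cell line cannot be told apart in this design, since the lines come from different patients and differ in much else besides DNMT3A, and without replicates no difference has a replicate check. Expression was not analysed here, so the labelled cell type could not be set against its markers. Bisulfite turns unmethylated cytosine into a base read as thymine, so each read that covers a CpG gives 1 call, methylated or not. The files held 902802339 calls for OCI-AML3 and 894828667 for AML5. At the CpGs of the histone windows the mean depth was 49.6 calls in OCI-AML3 against 44.7 in AML5, where the nuclear genome had 31.7 and 31.6. A level is the percentage of methylated calls at a CpG, and the level of a window is the mean over its CpGs. The intervals given are 95% Wilson intervals on shares of calls, which cover counting error only. At the median depth of these CpGs, a CpG with 0 methylated calls allows a level of up to 5.88% in OCI-AML3 against 6.38% in AML5.

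Histones are the proteins around which DNA is wound. H2A, H2B, H3 and H4 form the core of the nucleosome, and the linker histone H1 binds where DNA enters and leaves it. The replication-dependent genes are short, lack introns in most cases, occur in many copies and are switched on together in S phase, when new DNA must be packaged. Their messenger RNAs end in a stem-loop in place of a poly(A) tail. H2A and H2B genes often lie head to head and share the DNA between them as a promoter.

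The 200 bases upstream of the TSS of the annotation's canonical transcript are shown for 9 members, chosen after their values were seen. The first 5 belong to the windows with the largest increases in OCI-AML3, in decreasing order. H3C4 and H2BC15 follow as promoters at or near 0 in both lines, and H1-6 and H4C7 as promoters that were methylated in both. Each sequence was read from GRCh37, 5′ to 3′ on the strand of its gene, with every CG in capitals.
H3C3, chr6:26045412-26045611, plus strand: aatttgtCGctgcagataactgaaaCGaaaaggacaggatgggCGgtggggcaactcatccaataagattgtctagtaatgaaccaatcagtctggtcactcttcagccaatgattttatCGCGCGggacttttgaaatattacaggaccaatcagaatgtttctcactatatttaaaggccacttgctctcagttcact
H2BC3, chr6:26043942-26044141, minus strand: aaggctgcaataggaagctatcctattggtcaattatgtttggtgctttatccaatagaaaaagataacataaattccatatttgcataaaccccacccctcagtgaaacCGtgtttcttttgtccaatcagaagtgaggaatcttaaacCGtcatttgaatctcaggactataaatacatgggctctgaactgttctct
H3C8, chr6:26271642-26271841, minus strand: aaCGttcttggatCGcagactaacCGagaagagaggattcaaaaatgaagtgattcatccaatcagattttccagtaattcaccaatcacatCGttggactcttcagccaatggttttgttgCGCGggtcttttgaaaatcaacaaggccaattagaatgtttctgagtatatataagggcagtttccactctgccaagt
H2BC10, chr6:26272959-26273158, plus strand: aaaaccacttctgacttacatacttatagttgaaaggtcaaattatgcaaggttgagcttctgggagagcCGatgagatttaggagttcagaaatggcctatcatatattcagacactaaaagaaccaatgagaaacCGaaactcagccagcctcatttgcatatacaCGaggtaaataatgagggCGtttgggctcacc
H2BC9, chr6:26251642-26251841, plus strand: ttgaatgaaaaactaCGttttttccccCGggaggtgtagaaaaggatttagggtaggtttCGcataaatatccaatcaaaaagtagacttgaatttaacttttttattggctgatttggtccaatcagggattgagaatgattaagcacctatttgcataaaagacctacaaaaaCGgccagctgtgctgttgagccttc
H3C4, chr6:26197515-26197714, minus strand: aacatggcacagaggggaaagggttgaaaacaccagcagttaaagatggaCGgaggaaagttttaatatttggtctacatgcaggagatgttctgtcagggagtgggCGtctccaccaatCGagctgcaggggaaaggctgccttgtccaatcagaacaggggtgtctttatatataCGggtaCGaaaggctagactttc
H2BC15, chr6:27806147-27806346, plus strand: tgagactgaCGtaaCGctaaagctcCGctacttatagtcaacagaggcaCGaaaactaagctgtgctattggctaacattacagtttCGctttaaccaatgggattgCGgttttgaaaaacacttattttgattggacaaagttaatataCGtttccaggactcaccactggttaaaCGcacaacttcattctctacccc
H1-6, chr6:26108364-26108563, minus strand: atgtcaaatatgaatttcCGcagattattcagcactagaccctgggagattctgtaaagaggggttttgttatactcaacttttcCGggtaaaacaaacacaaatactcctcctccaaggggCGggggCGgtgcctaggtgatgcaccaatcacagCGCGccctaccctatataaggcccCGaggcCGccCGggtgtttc
H4C7, chr6:26247225-26247424, minus strand: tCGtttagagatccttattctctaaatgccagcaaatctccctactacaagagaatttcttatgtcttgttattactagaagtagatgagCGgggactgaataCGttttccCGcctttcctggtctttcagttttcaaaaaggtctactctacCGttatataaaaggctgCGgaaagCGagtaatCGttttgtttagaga

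These short sequences hold features common to the cluster. CCAAT or its complement ATTGG, which includes the CCAAT box, lay in the 200 bases of 43 of 49 members (87.8%), against 30.3% of the 19881 protein-coding genes whose promoters were read the same way. It was found in every H1, H2A, H2B and H3 promoter and in 4 of 10 H4 promoters. TATAAA or its complement, the core of the TATA box, lay in 29 members (59.2%), against 7.73% of all genes. ATTTGCAT or its complement ATGCAAAT, the octamer that histone H2B promoters are known for, lay in 14 members (28.6%), against 1.22% of all genes, and these were 9 of 12 H2B and 5 of 11 H2A promoters. Head-to-head promoters can overlap, and an octamer in the overlap counts for both genes. This was so at H2BC4 with H2AC6 and at H2BC17 with H2AC17. None of the 3 motifs contains another, both strands were read, and a match is a description of the sequence. Members held a mean of 7.10 CG per 200 bases, against 15.1 over all genes.

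A stem-loop was sought within 200 bases downstream of the stop codon. Its stem had 6 paired bases opening with GG, and its loop had 4 bases opening with TT. It was found in 44 of 49 members (89.8%), against 66 of 19881 genes (0.332%), a background that includes the members. Its commonest form, shown because it marks these genes, occurred in 28 members, with the paired stem in capitals.
Stem-loop: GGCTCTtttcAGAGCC
No match was found for H3C6, H2BC10, H2AC11, H2AC15 and H4C13. The 10 H3 genes encode 1 identical protein of 136 residues with its first methionine, and 9 of the 10 H4 genes encode an identical protein of 103 residues. H4C7 encodes a shorter one of 98 residues. The proteins of the 11 H2A genes fell into 6 sequences and those of the 12 H2B genes into 10, while each of the 6 H1 genes encodes its own.

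Over all 4226 CpGs of the histone windows the mean level was 26.7% in OCI-AML3 against 24.9% in AML5, a difference of 1.74 percentage points. Over the nuclear genome the order was the opposite, with 67.6% in OCI-AML3 against 75.4% in AML5. The 20858 CpGs of the same 2 Mb outside the histone windows stood at 71.8% in OCI-AML3 against 77.6% in AML5. The median histone CpG was at 0% in both lines. Levels below 20% were found at 2880 CpGs (68.1%) of OCI-AML3 and at 2977 (70.4%) of AML5, and levels above 80% at 958 (22.7%) and 903 (21.4%). Most CpGs of the cluster thus had little or no methylation, and a smaller part was close to fully methylated. As shares of calls, 23.6% (23.4 to 23.7) of the calls were methylated in OCI-AML3 and 21.2% (21.02 to 21.38) in AML5.

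CpG by CpG, the methylated and unmethylated calls of the lines were compared by Fisher's exact test, two-sided, with Benjamini-Hochberg adjustment over the nuclear CpGs, and a CpG was called at an adjusted p under 0.05. Such a test compares these 2 libraries, not the genotypes. In the histone windows 273 CpGs (6.46%) were called lower in OCI-AML3, against 14.7% of all nuclear CpGs. A further 298 CpGs (7.05%) were called higher, against 3.86% of all. The shares therefore lay below the background for lower CpGs and above it for higher ones. In AML5, however, 70.4% of the histone CpGs were below 20%, against 12.7% of all nuclear CpGs. This left less room for a decrease and more for an increase. The tested histone CpGs were also read more deeply, with a mean of 51.2 calls in OCI-AML3 and 45.9 in AML5. All tested nuclear CpGs had 36.2 and 35.3, and the test finds a difference more readily at greater depth.

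By gene, 41 of the 49 window means were lower in OCI-AML3 and 8 were higher. Of the 19667 protein-coding genes with at least 10 usable CpGs, 16661 were lower and 3005 higher, a similar division. None was lower by more than 20 percentage points, where 8.61% of the 19667 protein-coding genes with at least 10 usable CpGs were. A window with a mean under 20% in AML5 cannot fall that far. The median window mean in AML5 was 13.2% for the histone genes and 37.1% for all genes, so fewer histone windows had room to fall. The same lower levels left them more room to rise. In the other direction 4 were higher by more than 20 points (H3C3, H2BC3, H3C8 and H2BC10), where 1.79% of all genes were. The median difference was −1.50 points for the histone genes and −4.68 for all genes, and 33 histone windows (67.3%) lay within 5 points between the lines, against 44.9% of all. A mean below 10% in both lines was found for 19 histone windows (38.8%), against 7.36% of all. The plot of window levels by gene shows most members close together in the lines and the 4 far apart.

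**Figure D1:**
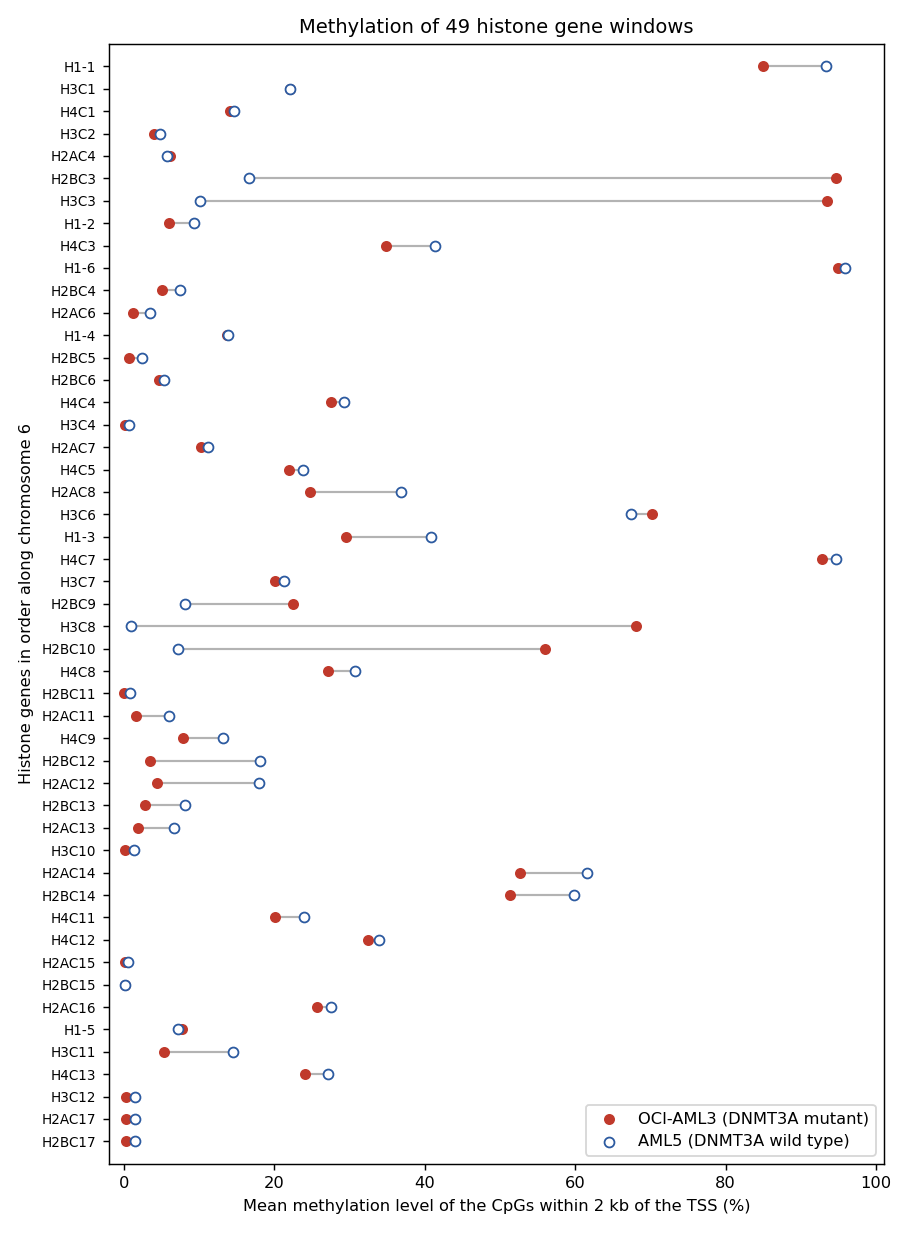
Mean DNA methylation level (percent) of the CpGs within 2 kb of the TSS for each of the 49 histone genes, in genomic order, in OCI-AML3 and AML5 (1 library each). The points of most genes lie close together, while H2BC3, H3C3, H3C8 and H2BC10 stand between 56.0% and 94.7% in OCI-AML3 and between 0.886% and 16.6% in AML5.

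The 4 windows form 2 pairs of neighbouring genes, each an H3 gene and an H2B gene transcribed away from each other. The window of H3C3, which encodes the replication-dependent H3, had a level of 93.5% in OCI-AML3 against 10.1% in AML5 over 134 CpGs. The difference of 83.4 points was the largest increase among the 19667 genes, and 121 of the CpGs were called higher. The window of its neighbour H2BC3, which encodes a core H2B, had 94.7% in OCI-AML3 against 16.6% in AML5 over 146 CpGs, of which 130 were called higher. Its difference of 78.1 points ranked 2 among all genes. These windows overlap, so that most of their CpGs are shared. As shares of calls, 94.8% (94.3 to 95.3) were methylated at H3C3 in OCI-AML3 and 6.53% (5.99 to 7.10) in AML5.

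The other pair lies further along the chromosome. The window of H3C8, whose protein is identical to that of H3C3, had a level of 68.1% in OCI-AML3 against 0.886% in AML5 over 141 CpGs. The difference of 67.2 points ranked 4 among all genes, and 106 CpGs were called higher. The window of H2BC10, a further H2B gene, had 56.0% in OCI-AML3 against 7.12% in AML5 over 157 CpGs. This difference of 48.9 points ranked 21 among all genes, with 92 CpGs called higher and 7 lower. It was 86.8 points with only the 2000 bp upstream and 36.003 points within 1000 bp of the TSS. Together the 4 windows held 344 CpGs, with a mean of 76.1% in OCI-AML3 against 13.3% in AML5.

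The higher mean of the cluster in OCI-AML3 rested on these 4 windows. Over the 3882 CpGs outside them the level was 22.3% in OCI-AML3 against 25.97% in AML5, a difference of −3.66 points, and 266 CpGs (6.85%) were called lower and 50 (1.29%) higher. Both shares lay below those of all nuclear CpGs. The 4 windows were left out for their increases and held 248 of the CpGs called higher, so a smaller share of higher CpGs was fixed by that choice. The nuclear background was not trimmed in the same way, so the share of higher CpGs cannot be set against it.

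At single-CpG resolution the called CpGs lay in stretches. A run was defined, after the values were seen, as at least 3 consecutive tested CpGs called in 1 direction, each no more than 300 bp from the next. There were 6 runs of higher CpGs with 280 CpGs (6.63% of the histone CpGs, against 1.00% of all nuclear CpGs). There were 33 runs of lower CpGs, which held 195 histone CpGs (4.61%, against 5.29% of all). The higher runs had a median of 19.5 CpGs and the lower ones a median of 4, and the longest held 134 and 22.

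The longest run, chr6:26043184-26046231, spanned 3048 bp and its 134 CpGs had a mean of 94.7% in OCI-AML3 against 4.87% in AML5. It covered the whole of H2BC3 (chr6:26043455-26043941), the whole of H3C3 (chr6:26045612-26046097) and the DNA between them. Within it, the 6 CpGs of the H3C3 sequence shown above had 95.4% in OCI-AML3 against 0% in AML5. A shorter run of 7 CpGs next to it, chr6:26043088-26043129, had 98.4% in OCI-AML3 against 60.1% in AML5.

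The run at the other pair, chr6:26270893-26272870, spanned 1978 bp and its 100 CpGs had a mean of 90.2% in OCI-AML3 against 0.971% in AML5. It covered the whole of H3C8 (chr6:26271146-26271641) and ended before H2BC10 (chr6:26273159-26273640). The 200 bases before H2BC10 had 9.07% in OCI-AML3 against 0% in AML5, and those before H3C8 had 87.1% and 0.362%. All CpGs of the run thus lay on the upstream side of H2BC10. A short run downstream of H3C8, chr6:26270608-26270761, held 4 CpGs with 97.0% in OCI-AML3 against 4.05% in AML5.

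The window of H2BC9, an H2B gene, ranked next among the members but differed from the other 4. Its mean was 22.5% in OCI-AML3 against 8.06% in AML5 over 102 CpGs, a difference of 14.5 points that ranked 599 among all genes. The run at its TSS, chr6:26251657-26252266, held 32 CpGs over 610 bp with a mean of 54.6% in OCI-AML3 against 0.964% in AML5. Across these CpGs the level in OCI-AML3 ranged from 35.3% to 68.8%. Whether methylation sat on part of the alleles of every cell or in part of the cells cannot be told apart from such levels. The window value of H2BC9 depended on its limits, from 49.02 points within 1000 bp of the TSS to −6.51 points with the 2000 bp upstream alone, the side on which its neighbour H3C7 lies.

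H3C7, a further H3 gene, had a window mean that hid both directions. Its level was 20.1% in OCI-AML3 against 21.3% in AML5, with 29 CpGs called lower and 34 higher. With only the 2000 bp upstream its difference was 49.02 points, so that it joined the 4 genes past 20 points under that setting. A run of 22 lower CpGs, chr6:26249243-26249850, had 12.2% in OCI-AML3 against 76.5% in AML5, and 6 CpGs at chr6:26250404-26250453 inside the gene had 0.321% and 45.4%. Of the higher CpGs, 32 were those of the H2BC9 run. A further higher run held 3 CpGs at H3C6, with 96.7% in OCI-AML3 against 42.1% in AML5.

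**Figure D2:**
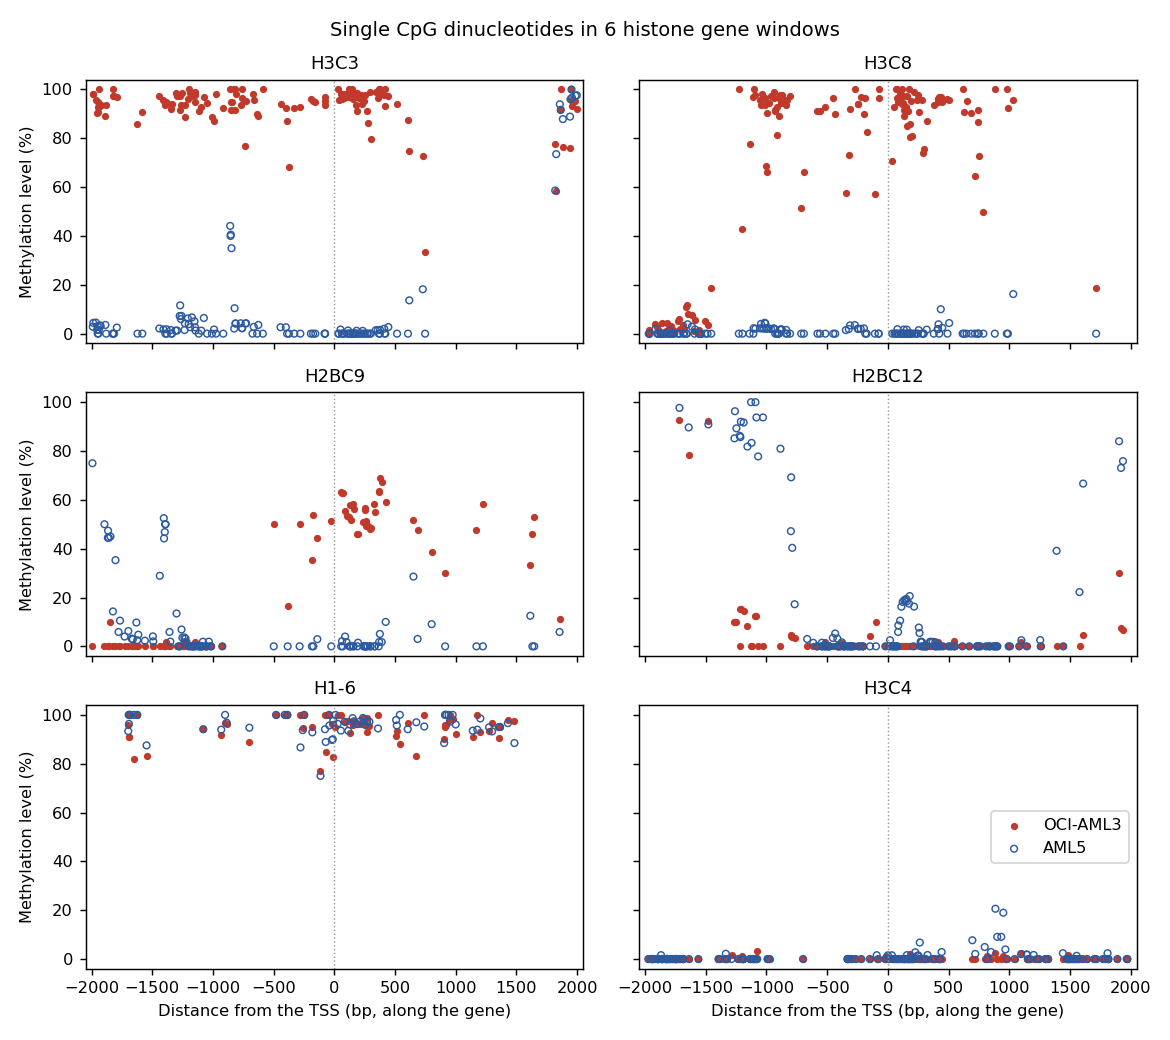
Methylation level (percent) of single CpGs in OCI-AML3 and AML5 against distance from the TSS (bp) in windows of 6 histone genes. At H3C3 and H3C8 the OCI-AML3 points form long stretches near 100% where the AML5 points are near 0%, at H2BC9 those of its run lie between 35.3% and 68.8%, at H2BC12 the AML5 points are the higher ones in the flanks, and both lines are near 100% at H1-6 and near 0% at H3C4.

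Lower CpGs lay in shorter stretches. The largest decrease of a window was that of H2BC12, an H2B gene, with 3.49% in OCI-AML3 against 18.1% in AML5, a difference of −14.7 points that became −23.8 with only the 2000 bp upstream and −4.48 within 1000 bp of the TSS. Its head-to-head partner H2AC12, which encodes H2A, had 4.34% in OCI-AML3 against 17.99% in AML5. A run of 18 CpGs at chr6:27115422-27115899, beyond the H2AC12 gene, had 6.73% in OCI-AML3 against 83.0% in AML5, and it lies in the windows of both genes. The window of H2AC8, an H2A gene, had 24.8% in OCI-AML3 against 36.9% in AML5, and 33 of its CpGs were called lower. That of H1-3, a linker histone gene, had 29.5% in OCI-AML3 against 40.8% in AML5, with 22 CpGs called lower, among them 10 consecutive ones with 1.54% and 44.3%. At H3C11, an H3 gene, the levels were 5.39% in OCI-AML3 against 14.6% in AML5, and 14 of its lower CpGs formed a run with 12.4% and 74.0%. The decreases moved with the limits of the window: within 1000 bp H2AC8 had −1.75 points and H1-3 had −2.91, and with only the 2000 bp upstream H2AC12 had −4.26, H1-3 had −6.45 and H3C11 had −3.03. With the 2 kb windows, all of these differences stayed within 20 points.

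H2AC14 and H2BC14 were unlike the rest of the cluster in having intermediate levels along the whole window. This divergent H2A and H2B pair shares 1 promoter region. H2AC14 had 52.7% in OCI-AML3 against 61.6% in AML5, and 116 of its 126 CpGs lay between 20% and 80% in OCI-AML3 against 92 in AML5. H2BC14 had 51.3% in OCI-AML3 against 59.8% in AML5. In the 200 bases before their start sites the order was turned, with 56.4% in OCI-AML3 against 40.7% in AML5 for H2AC14, and 52.5% and 39.2% for H2BC14. The 200 bases before H2AC13 closely resemble those before H2AC14, and had 0% in OCI-AML3 against 0.595% in AML5. How reads were placed between these copies was not tested.

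A few members were methylated in both lines. Window means above 80% in both were found for 3 members (H1-1, H1-6 and H4C7), which is 6.12% of the histone windows, against 10.2% of all genes. H1-6, the testis-specific linker histone gene, had 94.9% in OCI-AML3 against 95.8% in AML5. H4C7, whose protein differs from that of the other H4 genes, had 92.8% in OCI-AML3 against 94.6% in AML5. The sequences of both, shown above, were methylated as well, at 92.4% in OCI-AML3 against 91.5% in AML5 for H1-6 and at 95.8% and 97.6% for H4C7. H1-1, a linker histone gene, had 85.0% in OCI-AML3 against 93.3% in AML5, with 24 CpGs called lower. They included runs of 8, 8 and 4 CpGs around its start site, where the 200 bases upstream had 50.7% in OCI-AML3 against 81.2% in AML5. H2AC1 and H2BC1, the testis H2A and H2B genes, lie just outside the interval and are no members. H2AC1 had 89.2% in OCI-AML3 against 90.4% in AML5, and H2BC1 had 87.9% and 90.0%.

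Over all nuclear CpGs 14.7% were called lower and 3.86% higher. By histone class, the linker H1 genes had a mean of 35.5% in OCI-AML3 against 39.4% in AML5, with 52 CpGs (7.88%) called lower and 3 (0.455%) higher. Their windows ranged in AML5 from 95.8% at H1-6 down to 7.16% at H1-5, which had 7.76% in OCI-AML3. The 11 H2A genes had 11.5% in OCI-AML3 against 15.9% in AML5, with 110 CpGs (6.83%) called lower and 3 (0.186%) higher. H2AC15 was lowest among them, with 0.109% in OCI-AML3 against 0.555% in AML5. In neither class was any window higher by more than 20 points.

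The 12 H2B genes had 19.95% in OCI-AML3 against 10.4% in AML5, with 81 CpGs (4.87%) called lower and 263 (15.8%) higher. Outside the 4 windows the H2B levels were 7.78% in OCI-AML3 against 10.1% in AML5. H2BC15 was lowest of this class in AML5, at 0.109% in OCI-AML3 against 0.183% in AML5. The 10 H3 genes had 27.1% in OCI-AML3 against 13.2% in AML5, with 59 CpGs (4.33%) called lower and 268 (19.7%) higher. Outside the 4 windows the H3 levels were 13.6% in OCI-AML3 against 15.1% in AML5. In AML5 the H3 windows reached from H3C6, with 70.2% in OCI-AML3 against 67.4% in AML5, down to H3C4, with 0.126% and 0.737%. All 10 H4 windows were lower in OCI-AML3, with class means of 29.2% and 32.01%. Over all genes 16661 of 19667 windows were lower. In the H4 windows 47 CpGs (4.28%) were called lower and 1 (0.0911%) higher. H4C9 was lowest among them in AML5, with 7.86% in OCI-AML3 against 13.2% in AML5. Since neighbouring windows overlap, 2007 CpGs (45.9%) belong to more than 1 window.

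Along the chromosome the 49 genes fall into 3 groups whose start sites lie more than 200 kb apart. The first, of 28 genes, had a mean of 33.9% in OCI-AML3 against 28.2% in AML5. It held 163 CpGs called lower (6.27% of its CpGs) and 293 of the 298 called higher (11.3% of its CpGs). The second, of 5 genes (H2BC11, H2AC11, H4C9, H2BC12 and H2AC12), had 3.80% in OCI-AML3 against 12.4% in AML5. In it 45 CpGs (12.6%) were called lower, against 14.7% of all nuclear CpGs, and 0 higher, against 3.86%. The third, of 16 genes, had 18.4% in OCI-AML3 against 21.8% in AML5, with 65 CpGs (5.12%) called lower and 5 (0.394%) higher. All 4 windows higher by more than 20 points thus lay in the first group.

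Methylation was lowest at the start sites and highest at the far ends of the windows. For the 45 genes other than the 4, CpGs from 2000 to 1000 bp upstream had 83.3% in OCI-AML3 against 87.7% in AML5, while CpGs from the TSS to 500 bp downstream had 7.81% and 7.76%. From 1000 to 2000 bp downstream the levels were 38.2% in OCI-AML3 against 49.4% in AML5, and this bin held 119 of the CpGs called lower. The difference between the lines therefore lay mainly in the flanks. For the 4 genes the lines differed most upstream of the start site. Their CpGs from 1000 to 500 bp upstream had 92.0% in OCI-AML3 against 4.53% in AML5. Their CpGs within 500 bp upstream had 87.5% in OCI-AML3 against 1.70% in AML5, and those within 500 bp downstream had 71.9% and 0.964%. At 1000 to 2000 bp downstream, in contrast, they had 67.1% in OCI-AML3 against 74.6% in AML5.

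**Figure D3:**
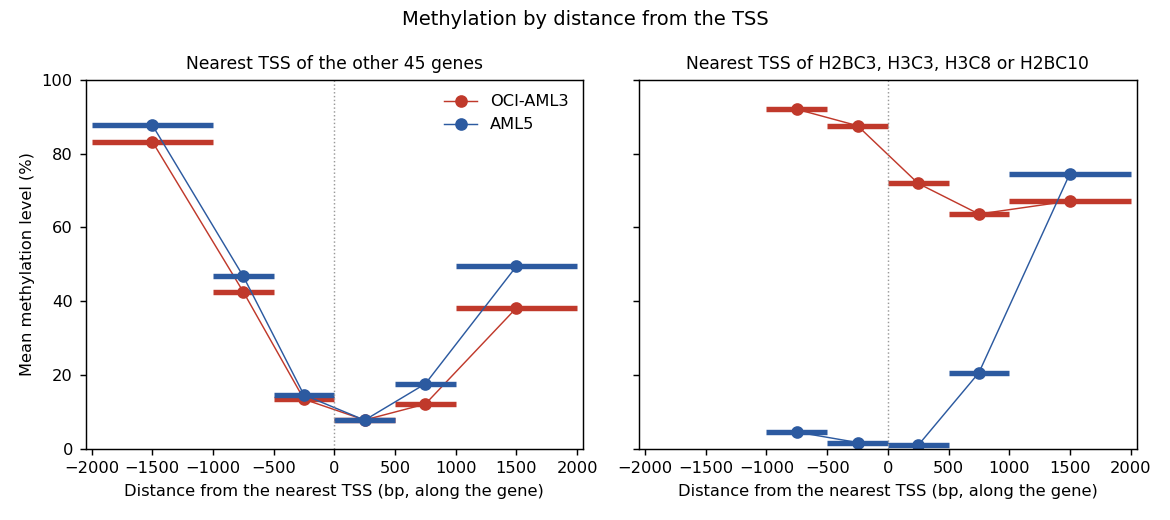
Mean methylation level (percent) of the histone CpGs by distance from the nearest TSS (bp, upstream negative) in OCI-AML3 and AML5, for the 4 genes whose windows were higher by more than 20 points and for the other 45 genes. In the 45 genes both lines dip to 7.81% and 7.76% just after the TSS, while in the 4 genes AML5 dips to 0.964% and OCI-AML3 stays at 71.9%.

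CpG density gave a similar division. Outside the 4 windows, CpGs with 1 to 8 CpGs in the surrounding 200 bp had 34.0% in OCI-AML3 against 39.4% in AML5, and those with 15 to 30 had 8.05% and 8.30%. With the 4 windows included, the densest class had 14.5% in OCI-AML3 against 7.77% in AML5. In coding sequence, with the 4 windows included, the level was 15.2% in OCI-AML3 against 9.36% in AML5, and outside it 32.9% and 33.4%. Runs of higher CpGs cover the whole of H2BC3, H3C3 and H3C8, and coding sequence without the 4 windows was not tested. For the genes other than the 4, CpGs from the TSS to 500 bp downstream had 7.81% in OCI-AML3 against 7.76% in AML5. The CpGs of the coding sequence are nearly all usable, since 1 of 1493 was lost to the read filter, against 142 of 2876 (4.94%) outside it.

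In the 200 bases before the canonical TSS, the stretch whose sequences are shown above, 47 members held at least 3 usable CpGs. Of these, 36 (76.6%) were below 5% in both lines, against 64.3% of 16476 genes, and 22 (46.8%) were at 0 in both lines, against 13.4%. A value of 0 requires that no CpG of the stretch has a methylated call, which is easier with fewer CpGs. Members held a mean of 7.10 CG there, against 15.1 over all genes, so the shares at 0 are not on like terms. H2BC15 was among those at 0, and H3C4 among those below 5%. A single promoter, that of H1-1, was lower by more than 20 points (background 9.29%), and 3 (H3C3, H2BC9 and H3C8) were higher (background 4.08%). H2BC9 had 46.3% in OCI-AML3 against 0.735% in AML5. The H2BC3 sequence holds only 2 CG, which had 88.3% in OCI-AML3 against 0% in AML5. H1-6, H3C6 and H4C7 were above 80% in both lines (6.38% of the members, against 6.12% of all genes). H3C6 had 96.8% in OCI-AML3 against 95.2% in AML5 there, and its canonical TSS lies 936 bp from the most upstream one. H2BC6, whose 2 start sites lie 11702 bp apart, had 42.6% in OCI-AML3 against 35.8% in AML5 before the canonical TSS, while its window at the upstream one had 4.62% and 5.27%. The start sites of H3C12 lie 2280 bp apart. It had 0% in both lines before the canonical TSS, and its window had 0.266% in OCI-AML3 against 1.48% in AML5. The windows of H2BC6 and H3C12 do not reach their canonical TSS, so their low means describe DNA at the upstream start sites only.

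The other protein-coding genes of the same 2 Mb and the histone genes elsewhere in the genome had no comparable increase. Of the 18 other genes of the interval, 16 were lower in OCI-AML3 (16661 of 19667 over all genes), with a median difference of −3.92 points. The largest increase among them was 13.9 points, and 1 gene, the olfactory receptor gene OR2B6, was lower by more than 20 points, with 38.7% in OCI-AML3 against 80.1% in AML5. HIST1H4B, an H4 gene that the annotation lists under an older symbol outside the rule, had 25.2% in OCI-AML3 against 28.9% in AML5.

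Of 20 histone genes with the same symbol stems outside the interval, 16 had at least 10 usable CpGs. Of these, 15 were lower in OCI-AML3 (16661 of 19667 over all genes), with a median difference of −2.14 points. The other 4 genes, H4C14, H3C14, H3C15 and H4C15, had 0 usable CpGs. H2BC12L, an H2B gene on chromosome 21, was the 1 gene past 20 points, with 57.5% in OCI-AML3 against 88.8% in AML5. Genes for the replacement variants of histones, which are made throughout the cell cycle, had a median of −1.47 points over 12 windows, and none passed 20 points. The same held for 17 genes whose products regulate histone gene expression or process histone messenger RNA, with a median of −4.92 points, 15 lower and 2 higher.

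**Figure D4:**
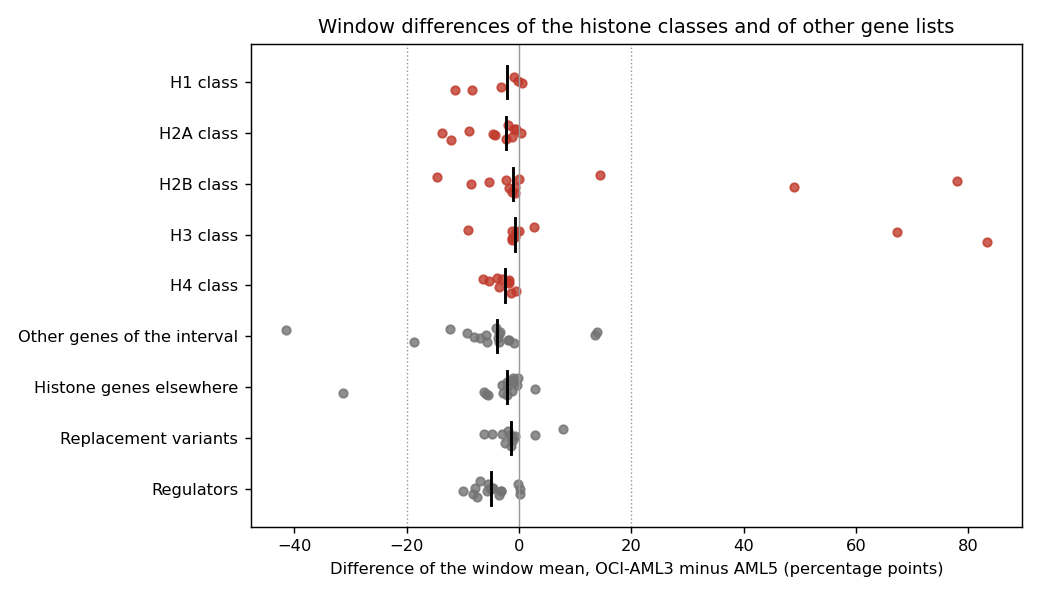
Difference of window mean methylation between the lines (OCI-AML3 minus AML5, percentage points) for each gene of the cluster, by histone class, and of the comparison lists, with 1 point for each gene. Points above 20 occur in the chromosome 6 cluster alone among these lists, at 48.9, 67.2, 78.1 and 83.4 points, while the medians, drawn as bars, lie between −4.92 and −0.67.

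The read filter left out 143 CpGs, of which 133 were too shallow in OCI-AML3 and 61 in AML5. Just inside the limit, 51 CpGs whose smaller depth was 6 had 22.2% in OCI-AML3 against 21.9% in AML5. Just outside it, 33 CpGs whose smaller depth was 5 had 35.3% in OCI-AML3 against 39.9% in AML5. Copies of histone genes resemble each other in coding sequence, and some also in promoter sequence, as do H2AC13 and H2AC14 or H4C11 and H4C12. How reads that fit several copies were placed was not tested.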

How the data were processed

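Whole-genome bisulfite sequencing of 1 library each of OCI-AML3 and AML5 was analysed. Per the submitters' processing notes, reads were aligned with Bismark and Bowtie 0.12.8 to hg19. The authors deposited, for each CpG, counts of methylated and unmethylated calls with both strands combined, and removal of PCR duplicates is not given in the sources used here. PCR reads are not independent molecules. Listed positions matched the G of a CG at every CpG of chromosome 6 in GRCh37, so each CpG was placed at its C, 1 base before the listed position.

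From these counts, levels, Wilson intervals and a two-sided Fisher's exact test per CpG (Benjamini-Hochberg over 24454751 CpGs with more than 5 reads in both lines) were computed in Python 3.11.15 (numba 0.67.0, pandas 2.3.3, scipy 1.17.1 and numpy 2.4.6) and plotted with matplotlib 3.10.9. The test was checked on simulated data. Gene starts and protein-coding status came from GENCODE lifted to GRCh37. Windows with fewer than 10 usable CpGs were not ranked, and 20 percentage points served as the threshold of a window difference.

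The members and lists were chosen with earlier results of these data known. Named with values were the testis genes, the 8 members with the largest decrease, the 5 with the largest increase, the highest and lowest member of each class in AML5, and genes of the comparison lists past 20 points. H3C7, H2BC6, H3C12, OR2B6, HIST1H4B, the runs and the sequences shown were chosen after their values were seen.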

Additional observations from a re-analysis of the deposited data

How the results depend on the processing

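No paired analysis was possible because each line has 1 library, and no difference has a replicate check. The mean difference over the histone CpGs, 1.74 percentage points, became 2.37 when each call counted once, 5.14 with windows of 1000 bp on either side, 4.80 with only the 2000 bp upstream and 1.44 from canonical start sites. It turned to −3.66 without the 4 windows higher by over 20 points, an alternative chosen after seeing the data, which also left 0 genes higher (4 with them) and 50 CpGs called higher (298 with them). Genes lower by over the threshold numbered 0, against 1 (H2BC12) with only the upstream bases and 4 with a threshold of 10 points. CpGs called lower numbered 273, against 122 with windows of 1000 bp and 119 with only the upstream bases. H2BC3, H3C3, H3C8 and H2BC10 were higher by over the threshold under every window, read minimum, depth limit and threshold tried except the one that leaves them out. The other alternatives for these counts stayed within 1.5 times. For single named genes 5 alternatives were counted: the read minimum, each call once, 1000 bp windows, only the upstream bases and the depth limit. Over these, 54 of 105 values moved by more than their interval and 51 by less. The sign of the small differences at H1-5, H2BC15, H3C4 and H3C6, and of that at H2BC9, changed under at least 1 of them. Canonical start sites, not counted there, changed H3C6 from 2.74 to 2.09 points. Depth limits single CpGs: at the median depth, levels under 5.88% in OCI-AML3 against 6.38% in AML5 cannot be told from 0.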
